A study of Equus caballus with 10 samples.

Results

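The genes described here encode proteins of the acute-phase response and of innate defence. They were chosen by name, as the rows of the deposited table for SAA1, LCN2, PTX3, HP, CP, LBP, S100A8, S100A9, CHI3L1 and ORM1. Of these 10 genes, 8 were analysed, among 29196 genes in all, and HP and ORM1 were not analysed here. RNA was sequenced from equine tenocytes, primary cells grown from the superficial digital flexor tendon of 5 horses (Thoroughbred or Thoroughbred-type, of a range of ages), 1 line of cells per horse. Each line was kept for 14 days in 3D collagen gels in medium with bovine serum. All 10 libraries, the comparison group included, came from cells that received PF-06650833, which inhibits the kinase IRAK-4, daily at 100 nM. In 5 libraries the inhibitor was the only treatment (PF group). In the other 5, from the same donors, IL-1β was given as well, at 17 ng/ml every 3 to 4 days (IL-1β + PF group). Libraries without the inhibitor were not analysed here, so the values show the response to IL-1β that took place in its presence.

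Acute-phase proteins are plasma proteins whose concentration changes during infection or injury, and the liver is their classical source. Interleukin 1 and interleukin 6 drive their genes through NFκB, C/EBP and STAT3 transcription factors, and many are also made locally by stromal cells. Serum amyloid A, the product of SAA1, is the main clinical marker of acute inflammation in the horse. Other members work at the site of damage. Lipocalin 2 binds bacterial siderophores, the long pentraxin PTX3 marks microbes and debris for complement, and S100A8 and S100A9 form calprotectin, the abundant calcium- and zinc-binding protein of neutrophils.

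The values are variance-stabilized log2 expression values, normalized between libraries, on which a gene with 0 reads has the value 3.433. Estimated reads on genes lay between 26408694 and 35765419 per library in PF and between 26708240 and 33387441 in IL-1β + PF. Means are given with the SD over the 5 donors (n = 5) and fold changes with their standard error (SE). Of the marker genes of tendon cells, COL1A1 and COL1A2 were high in every library (group means between 17.36 and 18.74), whereas the late tendon marker TNMD was at 0 reads in all 10. Of 12 myeloid markers, 5 had 0 reads in all libraries, the pan-leukocyte gene PTPRC had reads in 1 library (3 estimated reads) and 1, CD68, was differentially expressed. In bulk RNA, fewer cells of a type and less RNA per cell cannot be told apart.

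Of the 8 genes, 5 had reads in at least 5 libraries and were tested. Of these, 3 were differentially expressed, 2 higher (SAA1 and CP) and 1 lower (LCN2) in IL-1β + PF, and 2 (CHI3L1 and PTX3) were not. The call required an adjusted p below 0.05 (limma, Benjamini-Hochberg over all genes tested) together with a log2 fold change of 1 or more in either direction. Over all 17992 genes tested, 6.68% passed, 3.11% higher and 3.57% lower. In a fit blocked by replicate number (the donor), 8.26% of all genes passed, and the same 3 members did.

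**Figure D1:**
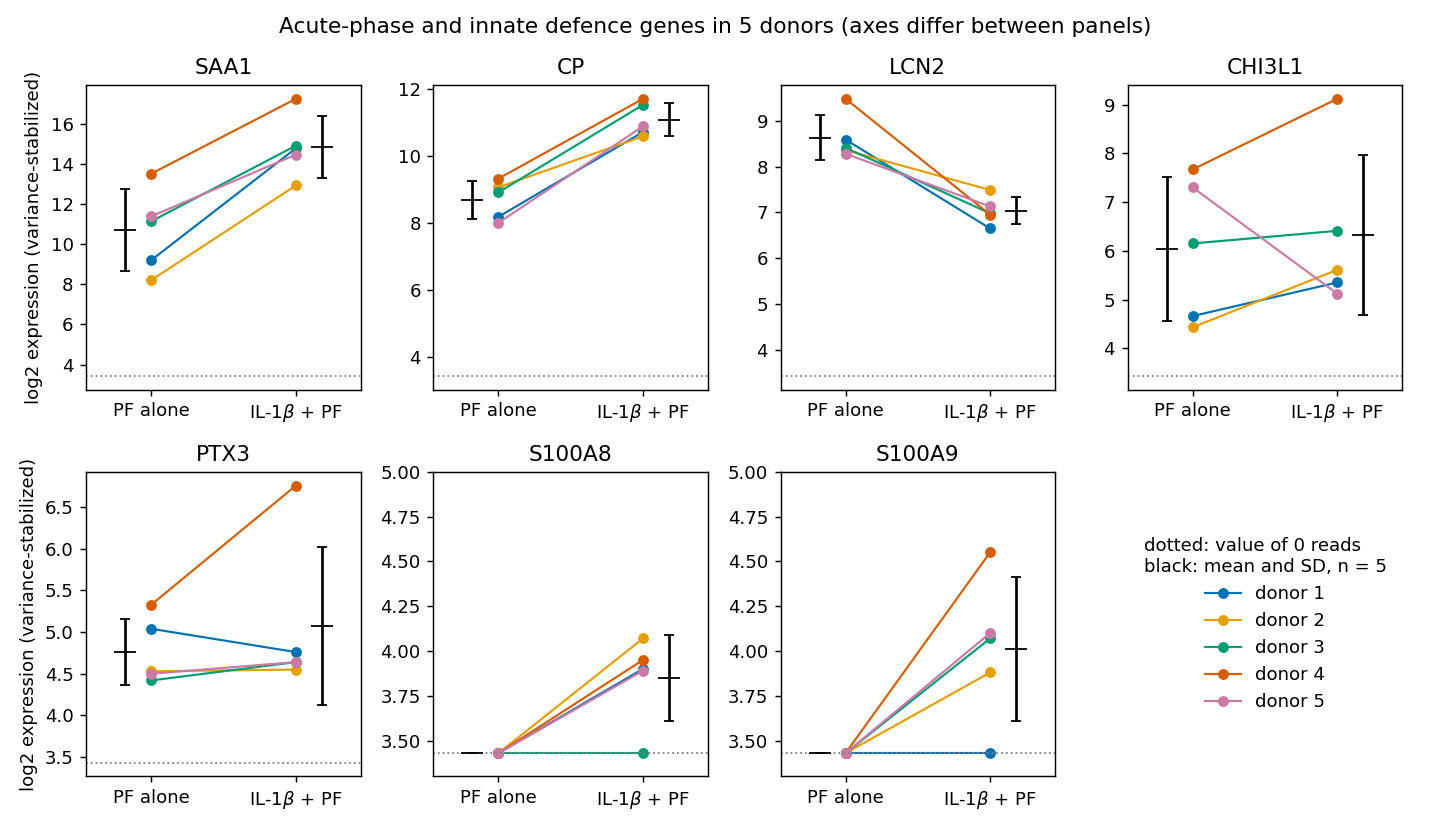
Variance-stabilized log2 expression of 7 genes in the PF group (PF alone) and the IL-1β + PF group; each coloured line joins the libraries of 1 of 5 donors, black bars are the mean and SD (n = 5), the dotted line is the value of 0 reads, and the axes differ between panels. SAA1 and CP were higher and LCN2 was lower in 5 of 5 donors, whereas the lines of CHI3L1 and PTX3 ran in both directions.

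SAA1, which encodes the apolipoprotein serum amyloid A, had the largest log2 fold change of the 5 tested genes. With PF-06650833 alone its log2 expression was 9.22, 8.22, 11.16, 13.54 and 11.41 in donors 1 to 5. With IL-1β + PF it was 14.81, 12.95, 14.94, 17.28 and 14.49 in the same donors. The groups overlapped, because donor 4 without IL-1β lay above donor 2 with IL-1β, but the value rose in each donor. The mean went from 10.71 ± 2.06 to 14.89 ± 1.55, a log2 fold change of 4.18 (SE 0.98, 95% confidence interval 2.03 to 6.34, limma adjusted p = 0.0154). With the replicate block the SE was 0.32 (95% confidence interval 3.43 to 4.93, limma adjusted p = 2.80e-04). Leaving out donor 1 or donor 5 without the block gave adjusted p-values of 0.0821 and 0.0529 from limma, with log2 fold changes of 3.83 and 4.46.

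On the scale of normalized counts, recovered by inverting the transformation, SAA1 ran from 278 to 11853 in PF and from 7908 to 158758 in IL-1β + PF. Even the lowest of these values rested on 208 estimated reads. The ratio within a donor was 49.8 in donor 1, 28.5 in donor 2, 13.9 in donor 3, 13.4 in donor 4 and 8.51 in donor 5. The largest ratios were those of donors 1 and 2, whose PF values, the denominators of the ratios, were the lowest. Donor 4 was highest and donor 2 lowest in both groups. A further serum amyloid A gene, listed as SAA, lies near SAA1 in the RefSeq table of another horse assembly and had 0 reads in all 10 libraries. Reads of near-identical copies can be split or moved between such genes, so the level of SAA1 is uncertain to that extent. The genes LOC100056698 and LOC100056747, between SAA1 and SAA in that RefSeq table, and LOC100056819, next to SAA, were not examined.

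CP encodes ceruloplasmin, the copper-carrying ferroxidase of plasma that oxidises iron as it leaves cells. With PF-06650833 alone it was at 8.18, 9.06, 8.91, 9.32 and 8.0 in donors 1 to 5 on the log2 scale. With IL-1β + PF it was at 10.71, 10.58, 11.52, 11.70 and 10.88. Every library with IL-1β lay above every library without it, which was so, in either direction, for 12.7% of all genes tested. The mean went from 8.69 ± 0.57 to 11.08 ± 0.50, a log2 fold change of 2.38 (SE 0.30, 95% confidence interval 1.73 to 3.04, limma adjusted p = 6.53e-04). The normalized count rose 2.94-fold in donor 2 and between 5.38-fold and 7.89-fold in the other donors. Its ratios spread over a narrower range than those of SAA1.

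LCN2, which encodes lipocalin 2, moved in the other direction. Its log2 expression was 8.59, 8.36, 8.41, 9.48 and 8.28 in donors 1 to 5 in PF. With IL-1β + PF it was 6.65, 7.49, 6.98, 6.95 and 7.13. The groups did not overlap, which made CP and LCN2 the 2 of 5 tested genes without overlap, and each donor was lower with IL-1β. The mean went from 8.63 ± 0.49 to 7.04 ± 0.30, a log2 fold change of -1.59 (SE 0.25, 95% confidence interval -2.13 to -1.04, limma adjusted p = 0.00218). Normalized counts were 290 to 692 in the first group and 80.2 to 158 in the second, so the value without IL-1β was 1.94 times (donor 2) to 6.72 times (donor 4) the value with it. Estimated reads were at least 65 in every library. The call held under all 27 alternative fits, with log2 fold changes between -1.76 and -1.35.

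**Figure D2:**
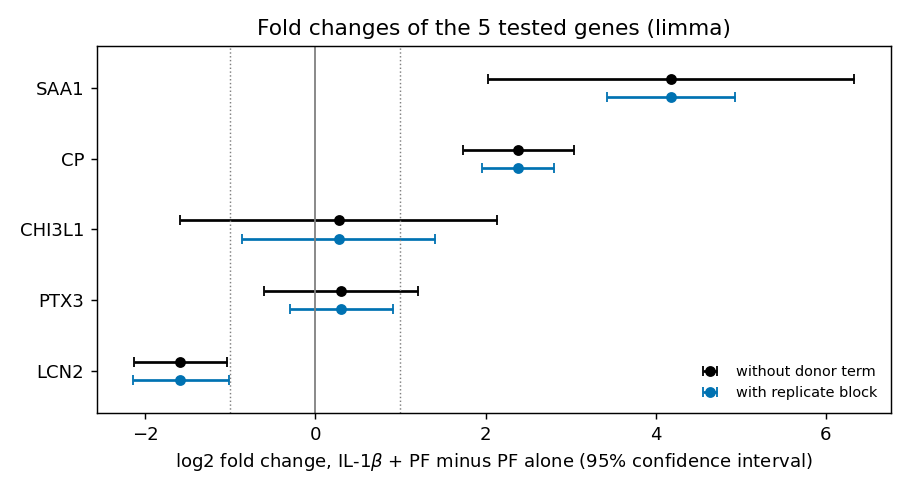
Log2 fold change (IL-1β + PF minus PF) of the 5 tested genes from limma, without a donor term (black) and with the replicate block (blue); bars are 95% confidence intervals and dotted lines mark an absolute log2 fold change of 1. The interval of SAA1 narrowed from 2.03 to 6.34 without the block to 3.43 to 4.93 with it, and those of CHI3L1 and PTX3 included 0 in both fits.

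CHI3L1 encodes a secreted chitin-binding glycoprotein without chitinase activity that connective tissue cells and macrophages release. It was at 4.66, 4.43, 6.15, 7.67 and 7.30 in donors 1 to 5 in PF, and at 5.35, 5.61, 6.41, 9.12 and 5.12 in IL-1β + PF. Donors 1 to 4 were higher with IL-1β, by 1.27-fold to 5.48-fold in normalized counts. Donor 5 went the other way, from a normalized count of 137 to 16.5. The log2 fold change was 0.28 (95% confidence interval -1.59 to 2.14, limma adjusted p = 0.869), and the replicate block gave an interval of -0.86 to 1.41 (adjusted p = 0.725). A change of 1 on the log2 scale in either direction lay inside the first interval, so no difference could be detected here, and the spread between donors, with SDs of 1.48 and 1.64, was far larger than the difference of the means.

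PTX3 was low throughout. Its log2 expression was 5.04, 4.53, 4.42, 5.33 and 4.50 in donors 1 to 5 in PF and 4.76, 4.55, 4.64, 6.76 and 4.64 in IL-1β + PF. These values correspond to 4 to 20 estimated reads in the first group. In the second they correspond to 6 to 8 estimated reads in donors 1, 2, 3 and 5, and 62 in donor 4. Donor 4 had the largest ratio of normalized counts, 4.11, and donor 1 was lower with IL-1β. The log2 fold change was 0.30 (95% confidence interval -0.60 to 1.21, limma adjusted p = 0.682), and it was -0.12 when the IL-1β library of donor 4 was left out.

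**Figure D3:**
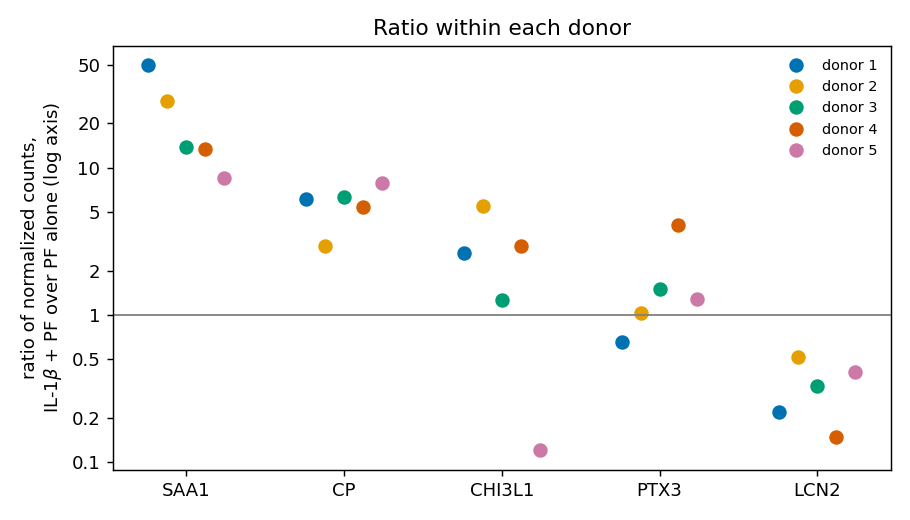
Ratio of the normalized count in IL-1β + PF to that in PF, on a log axis, for 5 genes in each of 5 donors; the line marks a ratio of 1. Ratios of SAA1 ran from 8.51 to 49.8, those of CP from 2.94 to 7.89 and those of LCN2 from 0.149 to 0.515, whereas CHI3L1 in donor 5 (0.12) and PTX3 in donor 1 (0.657) lay below 1.

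S100A8 and S100A9, the subunits of calprotectin, were close to the limit of detection and had too few libraries with reads to be tested. Both had 0 reads in all 5 libraries in PF. With IL-1β + PF, S100A8 had 1, 2, 0, 1 and 1 estimated reads in donors 1 to 5, and S100A9 had 0, 1, 2, 5 and 2. Each gene thus had reads in 4 of 5 libraries with IL-1β. A fit that kept genes with few reads gave log2 fold changes of 0.42 for S100A8 and 0.58 for S100A9, and neither was differentially expressed. All values in PF were at the value of 0 reads, so that fit cannot test these genes. LBP, which encodes the protein that hands lipopolysaccharide to CD14, had 0 reads in all 10 libraries. Since 3 reads are the most that a count of 0 allows, expression of LBP could not be detected at this depth. This limit covers counting error only.

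Lists of related genes were set beside the members, and each is described by its counts against the 6.68% of all genes tested. Of 31 other plasma acute-phase genes, 24 were analysed. Of these, 11 had 0 reads in all libraries, among them the fibrinogen chains FGA and FGG and the haem carrier HPX, 4 had reads in too few libraries and 9 were tested. PLA2G2A, a secreted phospholipase, was the 1 that was differentially expressed, from 7.35 ± 0.89 to 10.15 ± 2.08, with a log2 fold change of 2.80 (SE 0.86, limma adjusted p = 0.0497). It was higher in 5 of 5 donors, with ratios of normalized counts from 1.36 to 35.6, and the call was lost in 14 of 27 alternative fits. Of these 14, 11 left out a library or donor and had no donor term. With the replicate block on all libraries PLA2G2A passed (limma adjusted p = 0.0175). CRP, the pentraxin C-reactive protein, had a log2 fold change of 0.18 (limma adjusted p = 0.523). The median log2 fold change of the 9 genes was 0.11, against -0.01 for all genes, and 6 of the 9 were positive. The list was not split by the direction in which each protein changes during inflammation, so this median does not measure a shared response.

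Of 35 other innate defence genes, 12 could be tested and 5 of them passed, 3 higher and 2 lower. S100A12, which encodes the third calgranulin and lies beside S100A8 and S100A9 in the same RefSeq table, rose in every donor. It was at 4.83, 3.92, 3.92, 4.51 and 5.56 in donors 1 to 5 in PF and at 7.44, 7.08, 7.52, 8.79 and 7.40 in IL-1β + PF. This was a log2 fold change of 3.10 (SE 0.39, limma adjusted p = 6.91e-04), on 1 to 27 estimated reads per library in the first group and 101 to 297 in the second. Of the 3 calgranulin genes, S100A12 alone had enough reads to be tested. CHIT1, a true chitinase related to CHI3L1, had a log2 fold change of 1.16 (limma adjusted p = 0.0233) on at most 26 estimated reads, and its call was lost in 8 of 26 alternative fits. PI3, the protease inhibitor elafin, named after its values were seen, had one of 2.29 (limma adjusted p = 0.0383). The median log2 fold change of the 12 genes was 0.50.

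The 2 genes that fell in this list encode carbohydrate-binding proteins. COLEC12, a scavenger receptor of the collectin family, was at 12.54 to 12.96 in PF and at 6.99 to 10.84 in IL-1β + PF. Its log2 fold change was -3.97 (SE 0.67, limma adjusted p = 0.00311). LGALS3, which encodes galectin-3, went from 11.92 ± 0.37 to 10.29 ± 0.12, a log2 fold change of -1.64 (limma adjusted p = 1.86e-04). With the replicate block 7 genes of the list passed, the further 2 being ANG (log2 fold change 1.13, adjusted p = 0.0235) and ADM (1.26, adjusted p = 0.0119), named after their values were seen.

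Among 15 tested receptors and binding partners of the members, 2 were differentially expressed, both higher. IL13RA2, a decoy receptor for interleukin 13 that also binds CHI3L1, had 0 to 5 estimated reads per library in PF and 14 to 174 in IL-1β + PF. Its log2 fold change was 3.12 (SE 0.46, limma adjusted p = 0.00156). MMP9, the gelatinase that forms a complex with lipocalin 2, was at 13.53, 14.25, 14.30, 14.25 and 12.66 in donors 1 to 5 and at 16.68, 16.55, 16.55, 14.08 and 15.58 with IL-1β. It was higher in 4 of 5 donors, with a log2 fold change of 2.09 (SE 0.51, limma adjusted p = 0.0182), and its ratio of normalized counts in donor 4 was 0.885. MMP9 lost its call without donor 1, 2 or 5 in fits that had no donor term, with an adjusted p of up to 0.103 from limma. With the replicate block on all libraries it passed (limma adjusted p = 0.0135). SLC22A17, a receptor for lipocalin 2, had a log2 fold change of -0.07 (adjusted p = 0.916), and the other lipocalin 2 receptor on the list, LRP2, had reads in 2 libraries only. TNFAIP6, whose product binds PTX3 in the hyaluronan matrix, had one of 0.85 (limma adjusted p = 0.137). The median over the 15 genes was 0.36.

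Among the regulators of the acute-phase response, 9 of 26 tested genes were differentially expressed, 8 higher and 1 lower, both with and without the replicate block. The list holds several genes chosen with earlier results of these data known, so its count is not independent evidence of a direction. The smallest adjusted p-values were those of NFKB2, an NFκB subunit (log2 fold change 1.32), NFKBIZ, the atypical nuclear IκB protein known to be needed for the induction of LCN2 in other cells (2.92), and the cytokine LIF (4.99), at 7.28e-05 to 7.98e-05 from limma. The fourth place was shared at 1.07e-04 by NFKBIA, the inhibitor of NFκB that NFκB itself induces (1.64), and the cytokine IL6 (8.79). NFKBIZ was higher in 5 of 5 donors, with ratios of normalized counts from 4.15 to 13.3. CEBPB, a C/EBP factor that acts on acute-phase promoters, had a log2 fold change of 1.5 and IL6ST, the shared receptor chain of IL6 and LIF, one of -1.06. STAT3 was lower in 5 of 5 donors, with a log2 fold change of -0.49 (limma adjusted p = 0.0134). SOCS3 was higher in 5 of 5 donors, with one of 0.54 (limma adjusted p = 0.0194), and neither gene reached the minimum. CEBPD had a log2 fold change of -0.00 (limma adjusted p = 0.994). The median over the 26 genes was 0.20.

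**Figure D4:**
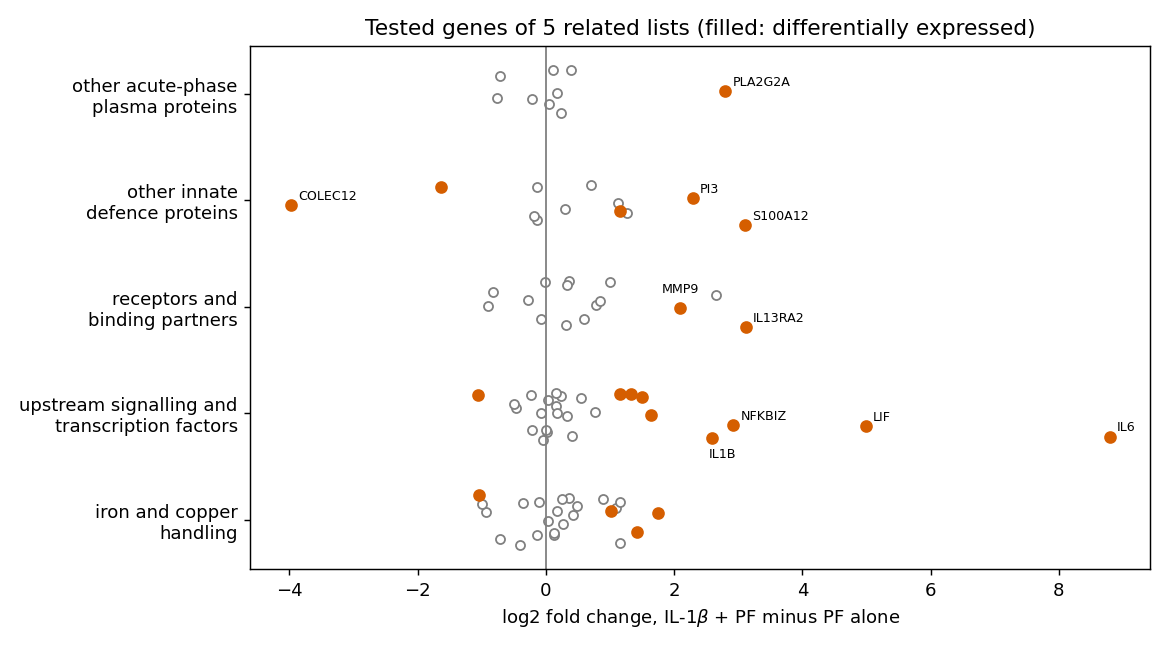
Log2 fold change (IL-1β + PF minus PF) of every tested gene of 5 related lists, 1 row per list with points shifted vertically for legibility; filled points are differentially expressed by limma without a donor term and open points are not. The regulators reached furthest to the right, with IL6 at 8.79, and COLEC12 lay furthest to the left at -3.97.

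Because ceruloplasmin and lipocalin 2 both act on iron, genes of iron and copper handling were examined. Of 24 tested, 4 were differentially expressed, 3 higher and 1 lower. SLC11A2, the divalent metal importer, had a log2 fold change of 1.75 (SE 0.20, limma adjusted p = 3.86e-04). FTL, the ferritin light chain, went from 13.55 ± 0.25 to 14.97 ± 0.62, a log2 fold change of 1.42 (limma adjusted p = 0.0053). ACO1, the iron-regulatory cytosolic aconitase (1.02), and the metalloreductase STEAP2 (-1.04) lay at the minimum fold change, and lost their calls in 6 and 3 of 27 alternative fits. SLC40A1, the iron exporter ferroportin whose iron ceruloplasmin oxidises, was lower in 5 of 5 donors with a log2 fold change of -0.93 (limma adjusted p = 0.0687, and 0.00457 with the replicate block), which did not reach the minimum fold change. With the replicate block 6 genes of the list passed, the further 2, named after their values were seen, being the transferrin receptor TFRC (log2 fold change 1.10, adjusted p = 0.0164, higher in 4 of 5 donors) and the ferritin heavy chain FTH1 (1.15, adjusted p = 0.0209, higher in 5 of 5). The median over the 24 genes was 0.21.

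Calgranulins, lipocalin 2 and chitinase-like proteins are also products of neutrophils and macrophages, so myeloid markers were read beside them. The summed normalized count of the 12 myeloid markers was 63.3 to 119 per library in PF and 172 to 758 in IL-1β + PF. Most of this sum was 1 gene, CD68, at 52.8 to 103 in PF and 170 to 738 in IL-1β + PF. CD68, a lysosomal gene that stromal cells also express, had a log2 fold change of 1.70 (limma adjusted p = 0.00795). The other 2 tested myeloid markers were not differentially expressed. ITGAM had 1 to 29 estimated reads per library (log2 fold change 0.37, limma adjusted p = 0.568). FCER1G had reads in 2 libraries of PF and 4 of IL-1β + PF, at most 7 (0.44, limma adjusted p = 0.241). The neutrophil receptor CXCR2 had reads in 2 libraries, both of IL-1β + PF and with at most 3, and CSF1R and MRC1 had 1 read each in 1 library of IL-1β + PF. The genes AIF1, C1QA, C1QB, TYROBP and CSF3R were at 0 reads in all 10 libraries, and the neutrophil granule gene MPO had reads in 1 library. Of 10 tenocyte markers, 9 were tested and 4 were differentially expressed, all of them lower with IL-1β, among them the tendon transcription factor SCX (log2 fold change -3.24). With the replicate block 6 passed, all lower, the further 2 being the collagen genes COL1A1 (log2 fold change -1.38, adjusted p = 0.0147) and COL1A2 (-1.28, adjusted p = 0.0169), both lower in 5 of 5 donors. DCN was the only tested tenocyte marker with a positive log2 fold change, 1.01, and was higher in 5 of 5 donors. It was not differentially expressed in either fit (limma adjusted p = 0.268, and 0.0529 with the replicate block). Summed normalized counts were 539 to 1574 in PF and 45.4 to 444 in IL-1β + PF for 6 epithelial markers, 6.83 to 46.9 and 3.88 to 29.5 for 6 endothelial markers, and 159 to 212 and 164 to 206 for 5 lymphocyte markers. The part of these marker genes in the results above was not tested.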

How the data were processed

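10 libraries of poly(A) RNA were analysed, 5 per group. The authors quantified paired reads with Salmon (version 1.8, GC-bias correction) on the EquCab3.0 transcriptome after FastQC (version 0.11.9) and used tximport and DESeq2 (version 1.36). They deposited log2 values for 29196 genes. The transformation is not named in the sources used here and was recognised from the values, as variance stabilization with a shared lowest value of 3.433. All 10 value columns were used, and no 2 libraries were identical (highest correlation 0.985).

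Genes above that value in at least 5 libraries entered a limma fit (limma version 3.58.1 in R version 4.3.3) with trended variances. It had no donor term, as the methods of the study name none, and a further fit took the replicate number as block. Replicate numbers stand for the tenocyte line in the sample titles. Deviations of the 5 same-donor pairs from their group means correlated at 0.367 to 0.506. The mean over 20 pairs of different donors was -0.107. That mean is no separate evidence of pairing, because deviations from a group mean sum to 0 over the libraries of the group. All p-values of genes are Benjamini-Hochberg adjusted over all genes tested, 17992 of them unless a filter or a left-out library changed that number.

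Normalized counts were recovered exactly up to the recognised transformation, and reads per gene from the spacing of the lowest values. Between 57.1% and 78.4% of low values lay within 0.15 of a whole read (30% for evenly spread values), so reads are approximate. Variance stabilization understates fold changes of genes with few reads. Gene length was not used, so the sums over marker genes weight long genes more and compare libraries, not genes. Of the names, 23397 were in a RefSeq table of another horse assembly (TB-T2T), used for names and neighbours only. The fit was tested on simulated data.

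Members, lists and tests were chosen with earlier results of these data known. Genes named are the members, the 4 differentially expressed genes with the smallest adjusted p in each related list (5 for the regulators, where 2 tied), cell type markers, and receptors or partners of a member. CRP, CEBPB, IL6ST, STAT3, SOCS3, CEBPD, SLC40A1 and MPO, and those so described in the text, were named after their values were seen. Alternatives were the block, other filters, scales, normalizations and thresholds, and leaving out each library or donor. Sequences of the members were not used here.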

Additional observations from a re-analysis of the deposited data

Results flagged for a closer look

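A library was set apart where its gap to the nearest of the other 4 libraries of its group was over 0.71 of the group's range. Of 44 groups of 5 libraries of the members and named genes, 4 had such a library, where chance gives about 2.2 (1 in 20). In 3 of the 4 it was the highest library and came from donor 4. LCN2 was at 9.48 in donor 4 in PF, against 8.28 to 8.59 in the other donors (normalized counts of 692 against 290 to 365). PTX3 was at 6.76 in donor 4 in IL-1β + PF, against 4.55 to 4.76 (88.1 against 6.76 to 9.73). S100A12 was at 8.79 in the same library, against 7.08 to 7.52 (423 against 114 to 162). S100A8 was at 3.43, the value of 0 reads, in donor 3 in IL-1β + PF, against 3.89 to 4.07 in the others, which is a difference of 1 or 2 reads.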

How the results depend on the processing

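With the replicate block 1486 genes and 3 members were differentially expressed, against 1202 and 3 without it, and 1195 genes were found by both fits. The block changed no call of a member. Of 21 single genes followed over 12 alternatives and 15 fits with a library or donor omitted, 19 kept their direction and 13 kept both direction and call in all. PTX3 and CHI3L1, which turned direction, were differentially expressed in none of these fits (lowest adjusted p of 0.445 and 0.639 from limma). Without a minimum fold change 2782 genes passed, 9 of the iron and copper genes and 4 of the receptors. At an adjusted p below 0.01 719 genes passed, with 1 member higher (SAA1, at 4.18, lost its call), 0 of the other acute-phase genes, 3 of the innate defence genes and 1 receptor. The acute-phase list also had 0 without the filter on low values or without the mean-variance trend, each time by the loss of PLA2G2A, and the receptors had 1 when reads were required in all 10 libraries, where fewer genes are tested. The replicate block on log2(normalized count + 1), added once the data had been seen, passed 1809 genes and 8 innate defence genes.

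When single libraries or whole donors were omitted, the count of all genes ran from 762 to 1422, of members from 2 to 3, of members higher from 1 to 2, of other acute-phase genes from 0 to 1, of innate defence genes from 3 to 5, of receptors from 1 to 3, of regulators from 8 to 9 and of iron and copper genes from 2 to 7. The log2 fold change of SAA1 ran from 3.56 to 4.89, of CP from 2.21 to 2.60, of LCN2 from -1.76 to -1.35, of PTX3 from -0.12 to 0.45 and of CHI3L1 from -0.42 to 0.89. The direction of PTX3 turned without the IL-1β library of donor 4, and that of CHI3L1 without the PF library of donor 1 (-0.07) or 2 (-0.12), the IL-1β library of donor 4 (-0.42) or both libraries of donor 4 (-0.01). Leaving out a donor removes 2 libraries. The cause of these changes was not tested. S100A8, S100A9 and, in most libraries, PTX3 rested on few reads, and LBP had 0 in all libraries, which limits what can be said of them. Whether depth was the reason was not tested.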

Other observations

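Donor 4 had the highest value of all 5 tested members in PF, and of 4 of them (SAA1, CP, CHI3L1 and PTX3) in IL-1β + PF. Over all genes tested donor 4 was the highest in 21.5% and 24.3% of genes in these groups, and in both groups in 8.2%. This count was made after the values had been seen, the members are not independent of each other, and no test was made.

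CD14, the receptor to which LBP delivers lipopolysaccharide, was uneven between libraries. It had 0 reads in 3 libraries in PF (donors 3, 4 and 5) and log2 values of 10.72 and 8.37 in donors 1 and 2. With IL-1β plus PF-06650833 it was at 10.73, 9.50, 8.75 and 10.27 in donors 1, 2, 4 and 5 and at 0 reads in donor 3. Up to 1468 estimated reads in 1 library thus stood beside 0 in another, and whether these zeros reflect the annotation or the assignment of reads to transcripts rather than a lack of CD14 RNA was not tested. With this limit, the log2 fold change was 2.66 (limma adjusted p = 0.34).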
